A study of Mus musculus with 8 samples.

Results

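The genes described here are 9 that encode hormones secreted by fat cells, or the receptors of adiponectin. They are Adipoq (adiponectin), Lep (leptin), Retn (resistin), Rbp4 (retinol-binding protein 4), Nampt (visfatin), Nrg4 (neuregulin 4), Rarres2 (chemerin), Adipor1 and Adipor2. They were chosen by gene symbol for what they encode and are 9 of the 53700 genes in the count table. All 9 were in the table once, and all 9 passed the filter on low counts. They were followed in mouse skin across 3 groups of libraries. These were uninjured skin (n = 3), skin 3 days after wounding (n = 2) and skin 7 days after wounding (n = 3). Every mouse was AdipoqCreER;R26-NuTRAP and received tamoxifen, the uninjured mice included. Wounded mice had 4 full-thickness wounds made with a 5 mm punch at 7 to 9 weeks of age, and no separate age is stated for the uninjured mice. In AdipoqCreER mice regulatory sequence of the adiponectin gene drives a recombinase that tamoxifen activates. NuTRAP is a reporter at the Rosa26 locus that puts GFP on the ribosomes of cells in which the recombinase has acted. A marked cell keeps its tagged ribosomes whether or not it goes on making adiponectin. When tamoxifen was given is not stated in the sources used here, nor whether each library came from 1 mouse or from pooled mice. RNA bound to the tagged ribosomes was pulled down with an antibody against GFP and sequenced. If the libraries were not from separate mice, the p-values below measure only the spread between these libraries, which may be technical.

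Adipokines carry signals from fat to other organs. Adiponectin circulates as multimers and acts through Adipor1 and Adipor2, which activate AMP-activated protein kinase and ceramidase activity. Leptin reports fat mass to the brain and is also made locally in skin, where it acts on keratinocytes. Resistin in the mouse is a product of fat cells, whereas Rbp4 carries retinol in blood and Nampt makes a precursor of NAD. Chemerin attracts immune cells after proteases have trimmed it, and neuregulin 4 signals through ErbB receptors.

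The 8 libraries held 5308959 to 17751689 counts. Fat cell markers were abundant in every library, and markers of other cells were also found, at levels that differed widely between lists and libraries. The 18 adipocyte markers summed to 75401 to 86117 CPM (counts scaled to a common library size with the trimmed mean of M values, TMM) in uninjured, 75892 to 95349 in day 3 and 51125 to 102256 in day 7 libraries. The 12 skeletal muscle markers summed to 5062 to 10765, 3031 to 5151 and 888 to 1690 CPM in the same order. The 9 luminal (glandular) epithelial markers summed to 13.3 to 30.3 CPM in uninjured, 28.1 and 1667 in day 3 and 616 to 1347 in day 7 libraries. Csn3 was at 0 in all uninjured and Elf5 in both day 3 libraries. The 10 fibroblast markers summed to 1720 to 2248, 1672 to 4956 and 6356 to 12649 CPM, and the 12 macrophage markers to 134 to 295, 313 to 1188 and 532 to 1228 CPM. The 10 endothelial markers summed to 79.6 to 169, 249.6 to 268 and 126 to 528 CPM, and the 9 keratinocyte markers to 1950 to 3480, 1446 to 6012 and 2017 to 7160 CPM. What follows describes RNA in the pull-down, in which fewer fat cells and less RNA per fat cell cannot be told apart. The columns of each group share a number at the start of their names that differs between groups, so whatever that number records cannot be told apart from the group.

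Promoter sequences are shown for 5 members because they set hormones made mainly by fat cells (Adipoq, Lep, Retn) beside genes made in most tissues (Nampt, Adipor1). The RefSeq table on GRCm38.p6 held 10 promoters for 8 of the 9 members, and Rarres2 had no entry. Each line is the 100 bases before the annotated start, 5′ to 3′ on the strand of the gene, and for Adipor1 the first of its 2 listed starts. Capitals mark matches on either strand to the CCAAT box, the TATAA box, the C/EBP motif TTGCNNAA, the Sp1 motif GGGCGG or the nuclear receptor motif AGGTCA.
Adipoq, chr16:23146436-23146535, plus strand: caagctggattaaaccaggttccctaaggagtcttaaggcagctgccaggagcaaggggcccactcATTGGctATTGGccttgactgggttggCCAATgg
Lep, chr6:29060121-29060220, plus strand: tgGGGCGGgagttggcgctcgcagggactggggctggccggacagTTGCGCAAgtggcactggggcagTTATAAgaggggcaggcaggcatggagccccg
Retn, chr8:3655670-3655769, plus strand: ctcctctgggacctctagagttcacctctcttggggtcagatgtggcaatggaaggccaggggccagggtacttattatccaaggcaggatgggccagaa
Nampt, chr12:32820235-32820334, plus strand: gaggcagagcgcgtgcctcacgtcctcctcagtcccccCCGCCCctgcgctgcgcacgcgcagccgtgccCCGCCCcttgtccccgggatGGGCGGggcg
Adipor1, chr1:134415278-134415377, plus strand: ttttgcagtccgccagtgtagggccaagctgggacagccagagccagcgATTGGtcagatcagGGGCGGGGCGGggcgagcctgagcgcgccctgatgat

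The capitals show 3 CCAAT matches close to the Adipoq start, at 34, 27 and 7 bases before it. Lep has a TTGCNNAA match 55 bases before its start and a pair of overlapping TATAA matches on opposite strands at 32 and 31 bases. Retn has none of the 5 motifs in the 250 bases before its start. GGGCGG matches occur in both kinds of gene: once in Lep, at 98 bases, 5 times within 250 bases in Nampt, and at 37 and 32 bases in Adipor1, where the pair overlaps by 1 base. Adipor1 also has a CCAAT match at 51 bases and Nampt an AGGTCA match at 151. The promoters of Rbp4, not printed, hold CCAAT at 162 bases in the first and TATAA at 28, GGGCGG at 99 and 114 and TTGCNNAA at 128 bases in the second. The Nrg4 promoter holds AGGTCA at 90 and 26 bases. Over all 32851 promoters, 33.8% hold CCAAT in these 250 bases, 22.8% TATAA, 9.56% TTGCNNAA, 32.7% GGGCGG and 14.0% AGGTCA. These are matches of letters and not measured binding.

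Retn and Adipoq were among the most abundant messages of the whole pull-down. Levels of different genes were compared per length, as TPM (counts per base, scaled to the same total in each library) from the deposited gene lengths, without TMM. Retn was at 9225 ± 756 TPM in uninjured libraries (SD, n = 3) and ranked between 7 and 10 among all 53700 genes in each of the 8 libraries. Adipoq was at 7018 ± 151 TPM and ranked between 11 and 30. Rbp4 came next in each library, at 1416 ± 101 TPM. Retn, Adipoq and Rbp4 kept this order in all 8 libraries. The next places changed between libraries. Rarres2 was at 197 ± 131, Lep at 121 ± 67.0, Adipor1 at 78.7 ± 12.6 and Adipor2 at 69.8 ± 7.01 TPM in uninjured libraries, and neighbours in this order did not differ beyond their spread. Nrg4 at 23.3 ± 2.29 and Nampt at 21.9 ± 6.14 TPM were lowest and likewise overlapped. The deposited length of Rarres2 is 2656 bases over all its exon models, and a shorter messenger in these cells would make its TPM too low.

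**Figure D1:**
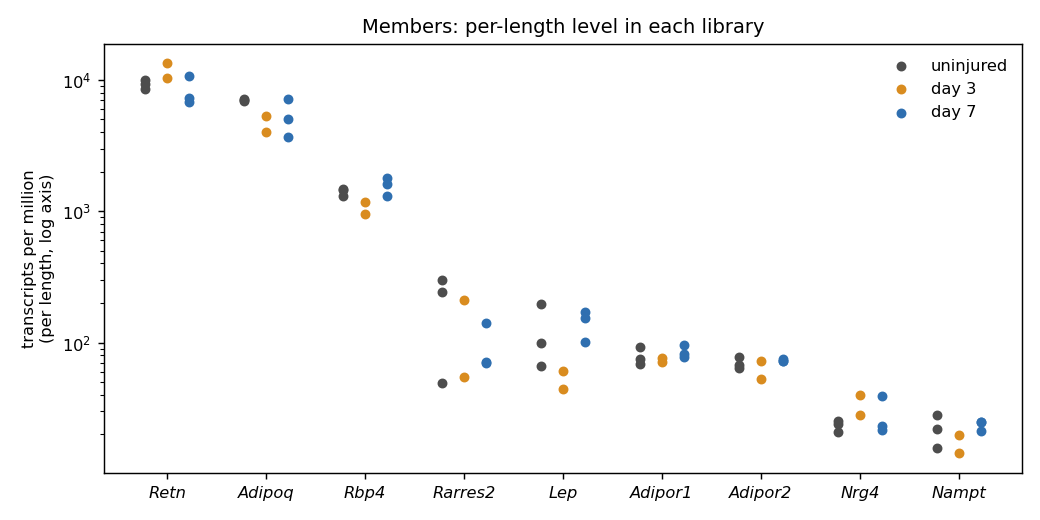
Per-length level (TPM, log axis) of each member in each library, with 1 point per library coloured by group. Retn, Adipoq and Rbp4 lie above the other members in every library, and Rarres2 and Lep spread most.

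Adipoq was even across uninjured and day 3 libraries (1.10-fold and 1.15-fold ranges) and uneven across day 7 libraries (2.87-fold). The gene (ENSMUSG00000022878.6) lies on chromosome 16 from 22965286 to 22976778, plus strand. These and the other gene coordinates are those of the deposited table, whose build is not settled: the processing notes name mm10, yet only 1491 of 52093 identifiers start where the GRCm38 annotation puts them. Uninjured libraries had 4908, 5404 and 5401 CPM, day 3 libraries 3329 and 3837, and day 7 libraries 1803, 2789 and 5177. Both day 3 libraries lay below all uninjured ones, whereas day 7 replicate 3 lay within the uninjured range and replicates 1 and 2 below it. The edgeR log2 fold change was -0.69 ± 0.39 (SE) at day 7 (95% interval -1.54 to 0.17, adjusted p = 0.277) and -0.55 ± 0.44 at day 3 (adjusted p = 0.612), and neither passed. Without day 7 replicate 3 it was -1.19 with an adjusted p of 0.0205, in a fit that called 22% of all genes. Within day 7 the adipocyte markers moved alongside: they summed to 51125, 64188 and 102256 CPM in replicates 1, 2 and 3. At day 3, where Adipoq was lower in both libraries, they summed to 95349 and 75892 CPM in replicates 1 and 2. The uninjured sums were 75401 to 86117 CPM. When libraries were scaled to these markers instead of by TMM, the Adipoq log2 fold change at day 7 was -0.16 (adjusted p = 0.548).

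Lep was lowest at day 3, without passing the test. Lep (ENSMUSG00000059201.13, chromosome 6 from 29060219 to 29073876, plus strand) was at 334, 189.9 and 122 CPM in uninjured libraries. It was at 88.6 and 107 CPM at day 3 and at 119.9, 231 and 268 CPM at day 7. Both day 3 libraries were below every other library, and the day 7 libraries spanned much of the uninjured range. The log2 fold change at day 3 against uninjured was -1.14 ± 0.44 (unadjusted p = 0.0248, edgeR adjusted p = 0.319), and at day 7 against day 3 it was 1.08 ± 0.44 (unadjusted p = 0.0314, edgeR adjusted p = 0.422). Without a filter on low counts the day 3 value was -1.16 with an adjusted p of 0.0217, where 2.39% of all genes were called. Without uninjured replicate 1, the highest library, it was -0.66 (adjusted p = 0.729). At day 7 against uninjured Lep was at -0.06 ± 0.38, with a 95% interval of -0.89 to 0.77.

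Retn (ENSMUSG00000012705.17, chromosome 8 from 3705770 to 3710110, plus strand) was highest in day 3 replicate 1. It was at 6796, 8296 and 8573 CPM in uninjured, 12697 and 8566 in day 3, and 4059, 4349 and 8839 in day 7 libraries. In day 3 replicate 1 it took 1.16% of all counts, against 0.502% to 0.836% in the other libraries. Day 7 replicates 1 and 2 were lower than every other library, and replicate 3 was higher than every uninjured library. The log2 fold changes were -0.46 ± 0.40 at day 7 and 0.43 ± 0.44 at day 3 against uninjured, and -0.89 ± 0.44 at day 7 against day 3. None passed (edgeR adjusted p = 0.478, 0.697 and 0.479).

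Nrg4 (ENSMUSG00000032311.18, chromosome 9 from 55127506 to 55234128, minus strand) had a like profile at a far lower level. It was at 74.2, 71.7 and 83.3 CPM in uninjured, 145 and 89.7 in day 3, and 46.1, 56.7 and 124 in day 7 libraries. Both day 3 libraries were above all uninjured ones, the only such case among the members. The log2 fold change at day 3 was 0.62 ± 0.38 (edgeR adjusted p = 0.511). At day 7 the libraries fell on both sides of the uninjured range, with a log2 fold change of -0.01 ± 0.35. Nrg4 shares 368 exon bases with Fbxo22 and 177 with Gm15625, both on the opposite strand, and whether counting used strand is not stated in the sources used here. Whether the Nrg4 count gained or lost reads through the shared bases cannot be told. In uninjured libraries Fbxo22 had 522 to 979 counts and Gm15625 2 to 4, where Nrg4 had 577 to 1171.

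Rbp4 (ENSMUSG00000024990.14, chromosome 19 from 38105077 to 38113729, minus strand) was the most even hormone among uninjured libraries, at 1016, 993 and 1069 CPM. Day 3 libraries had 766 and 832 CPM, both lower than any uninjured library. Day 7 libraries had 616, 866 and 1253 CPM, and so held both the lowest and the highest value of all 8. The log2 fold changes against uninjured were -0.36 ± 0.32 at day 3 and -0.17 ± 0.29 at day 7 (edgeR adjusted p = 0.654 and 0.729).

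Nampt (ENSMUSG00000020572.9, chromosome 12 from 32869544 to 32903348, plus strand), an enzyme of most cells that is also found outside cells, was low and ranged 2.03-fold over the 8 libraries. It was at 56.5, 45.1 and 77.0 CPM in uninjured, 60.5 and 38.0 in day 3, and 44.0, 42.9 and 65.6 in day 7 libraries. The groups overlapped in every comparison, and the 95% interval of the log2 fold change at day 7 was -0.84 to 0.39 (edgeR adjusted p = 0.632).

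Rarres2 (ENSMUSG00000009281.7, chromosome 6 from 48546630 to 48549723, minus strand) had the widest spread of the members. Uninjured libraries had 328, 452 and 71.6 CPM, a 6.31-fold range within the group. Day 3 libraries had 87.0 and 294 CPM, and day 7 libraries 67.0, 150.4 and 96.9. Uninjured replicate 3 thus lay among the day 7 libraries. The log2 fold change at day 7 was -1.44 ± 0.61 (unadjusted p = 0.0371, edgeR adjusted p = 0.160), and without uninjured replicate 3 it was -1.90 (adjusted p = 0.0673). Without a filter on low counts it was -1.48 with an adjusted p of 1.41e-05, where 8.16% of all genes were called. Rarres2 shares 892 exon bases with Lrrc61 on the opposite strand. Lrrc61 had 131 to 238 counts in uninjured libraries, where Rarres2 had 496 to 7385.

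**Figure D2:**
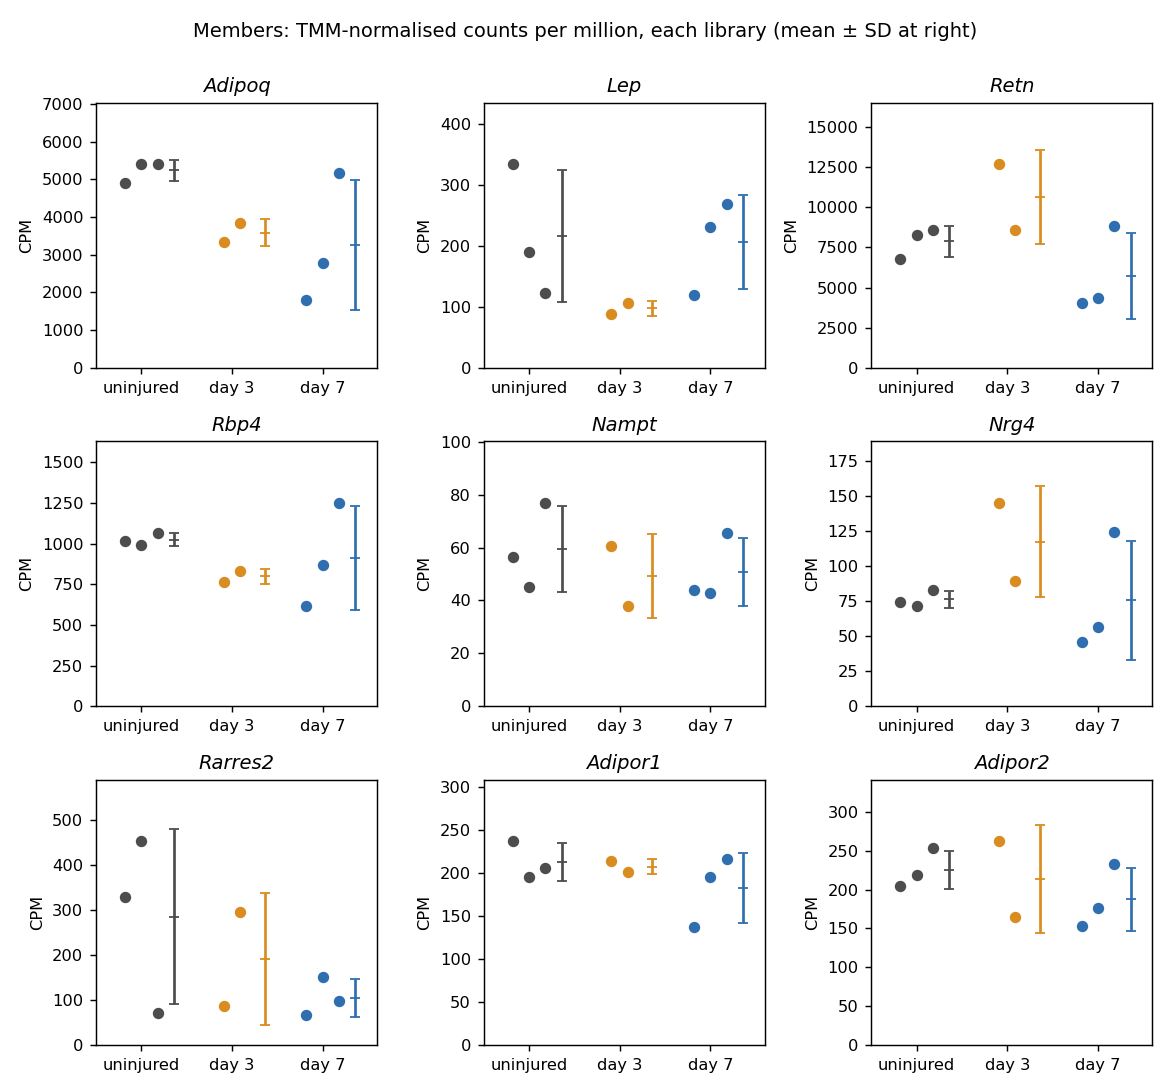
TMM-normalised CPM of each member in each library by group (1 point per library, left to right in replicate order), with the group mean and SD at the right of the points. Day 7 replicate 3 is the highest of its group for every member except Rarres2, and both day 3 points of Lep lie below all others.

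The adiponectin receptors were the steadiest members. Adipor1 (ENSMUSG00000026457.15, chromosome 1 from 134343116 to 134361089, plus strand) was at 237, 195 and 206 CPM in uninjured, 214 and 201 in day 3, and 137, 195 and 215 in day 7 libraries. Adipor2 (ENSMUSG00000030168.14, chromosome 6 from 119330111 to 119394665, minus strand) was at 205, 219 and 253, then 262 and 165, then 153, 176 and 233 CPM. From the lowest to the highest of the 8 libraries they ranged 1.73-fold and 1.71-fold, and for both the lowest was day 7 replicate 1. The 95% intervals of the log2 fold change at day 7 were -0.72 to 0.28 for Adipor1 and -0.82 to 0.29 for Adipor2 (edgeR adjusted p = 0.552 and 0.512). A fall to under 0.5 of the uninjured level lies outside both intervals.

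As a set, none of the 9 members passed in any of the 3 comparisons. At day 7 against uninjured 0 of 9 passed, where 7.67% of all 18656 genes tested did (5.9% rose and 1.77% fell). Rarres2 alone had an unadjusted p under 0.05 there, as did 26.7% of all genes. At day 3 against uninjured and at day 7 against day 3 0 of 9 passed too, where 0.0107% (all of which rose) and 0.0858% of all genes did (0.0643% rose and 0.0214% fell). Lep alone had an unadjusted p under 0.05 in each, as did 13% and 11% of all genes. DESeq2 called 0 of 9 in all 3 comparisons. Of the same 18656 genes it called 2602 at day 7 and 430 at day 3 against uninjured, and 225 at day 7 against day 3. All 9 had a negative log2 fold change at day 7, with a median of -0.22 against 0.04 over all genes tested. That direction depended on the scaling: it was negative for 8 of 9 under upper-quartile scaling and for 2 of 9 when libraries were scaled to the adipocyte markers, which moved the median of all genes to 0.73. TMM factors were 1.31, 1.16 and 0.948 in day 7 replicates 1 to 3, and 0.880 to 0.950 in uninjured libraries. In TPM, which leaves TMM out, day 7 means were above uninjured means for Lep, Rbp4, Nampt, Nrg4, Adipor1 and Adipor2. They were below for Adipoq, Retn and Rarres2, and differences in TPM were not tested. At day 3 against uninjured 7 of 9 log2 fold changes were negative, with a median of -0.28 against 0.02. Libraries of both groups did not overlap for 4 members there (Adipoq, Lep and Rbp4 lower, Nrg4 higher), where 34.1% of all genes did not (16.9% higher, 17.2% lower). They did not overlap for 0 members at day 7 against uninjured (30.2% of all genes, 16.7% higher and 13.5% lower) and for 1, Lep, at day 7 against day 3 (25.5% of all genes, 14.2% higher and 11.4% lower). The comparisons share libraries and are not independent.

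**Figure D3:**
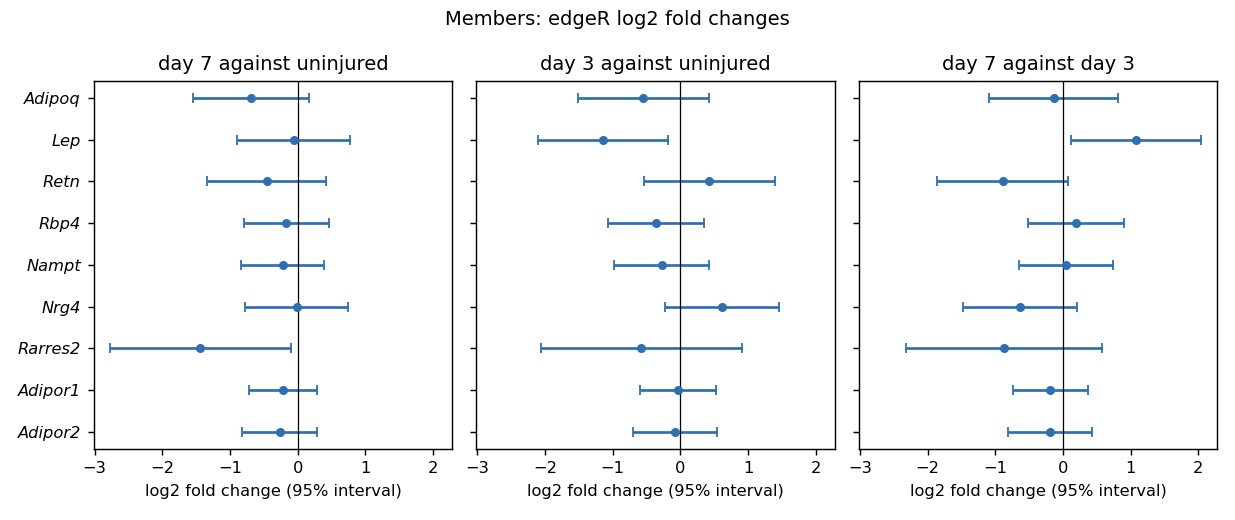
edgeR log2 fold change of each member with its 95% interval (not adjusted for the number of genes), in the 3 comparisons. Intervals leave out 0 for Rarres2 at day 7 against uninjured and for Lep in both comparisons with day 3, and no adjusted p was under 0.05.

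Libraries within a group differed widely. In TMM CPM, day 7 replicate 1 was lowest of all 8 libraries for 7 members: Adipoq, Retn, Rbp4, Nrg4, Rarres2, Adipor1 and Adipor2. Its TMM factor was also the largest, at 1.31. In TPM, which leaves TMM out, it was lowest for Adipoq alone. The lowest TPM lay in day 7 replicate 2 for Retn, day 3 replicate 1 for Rbp4 and day 3 replicate 2 for Adipor2. It lay in uninjured replicate 2 for Nrg4 and Adipor1, and in uninjured replicate 3 for Rarres2. The adipocyte score of day 7 replicate 1, the mean log2 CPM of the 18 markers less the uninjured mean, was -1.10, against -0.77 and -0.07 in day 7 replicates 2 and 3. Day 7 replicate 3 was above the mean TMM CPM of the uninjured libraries for Lep, Retn, Rbp4, Nampt, Nrg4, Adipor1 and Adipor2. Scored alike, luminal epithelial markers in day 7 replicates 1, 2 and 3 came to 6.05, 5.84 and 5.21, and endothelial markers to 2.80, 2.75 and 0.46. Keratinocyte markers came to 1.41, -0.16 and -0.53 there. Day 3 replicate 1, which in TMM CPM was highest for Retn, Nrg4 and Adipor2, had a luminal score of 6.00, against 0.97 in replicate 2. Its macrophage score was 0.96 against 2.54, and its keratinocyte score -0.71 against 1.16. The part of these other cell types in the members' values was not tested.

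**Figure D4:**
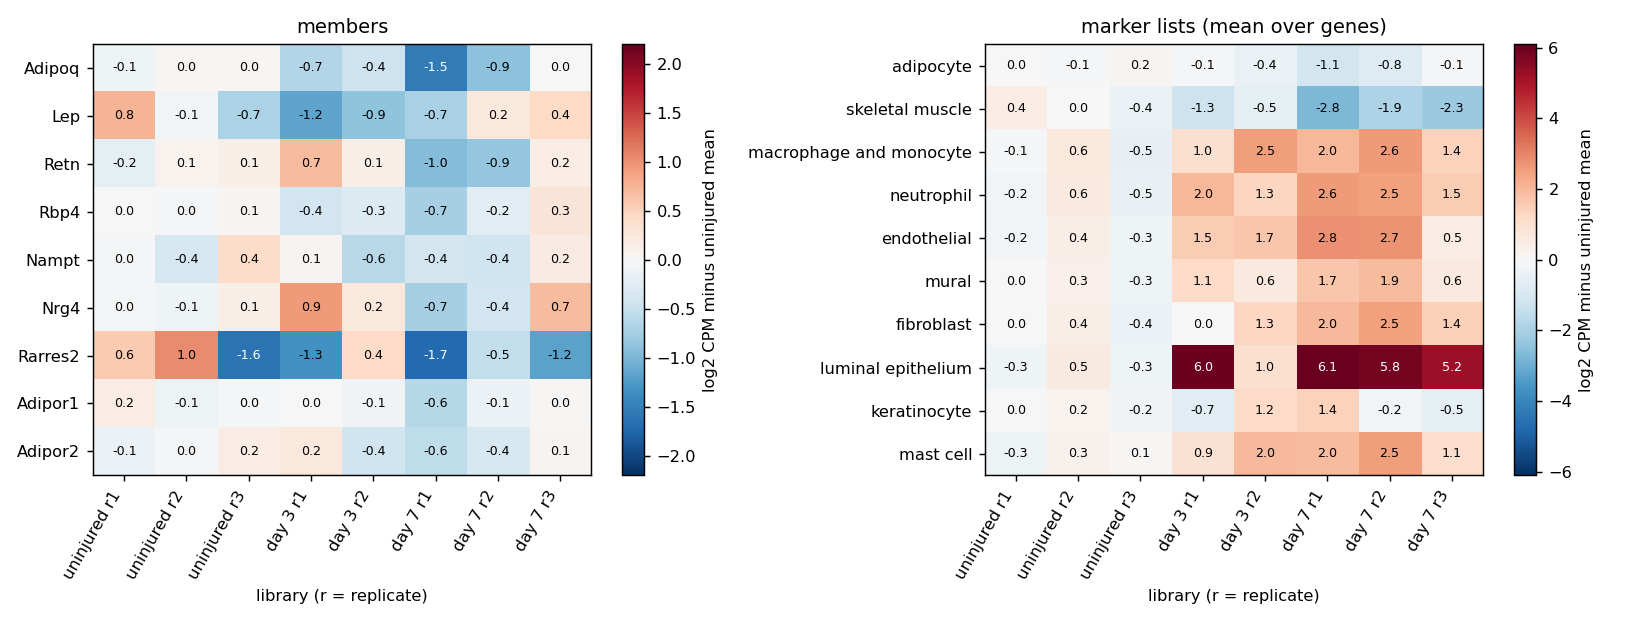
Log2 CPM of each member (left) and mean over each marker list (right) less the mean of the uninjured libraries, per library, with a separate colour scale for each panel. Day 7 replicates 1 and 2 are low for most members and for the adipocyte list, and day 7 replicate 3 is at -0.07 for that list.

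Ratios within a library do not depend on how libraries are scaled. Lep counts were 6.80%, 3.51% and 2.26% of Adipoq counts in uninjured libraries, 2.66% and 2.78% at day 3, and 6.65%, 8.29% and 5.18% at day 7. All day 7 libraries lay above both day 3 libraries, a mean log2 difference of 1.28, and the uninjured libraries overlapped both groups. An exact two-sided permutation test gave p = 0.1, the smallest that 3 against 2 allows, and 0.6 after Benjamini-Hochberg adjustment over the 6 ratio comparisons made. At day 7 against uninjured the log2 difference was 0.80 (exact p = 0.3). Adipor2 counts were 86.5% to 123% of Adipor1 counts in uninjured, 82.2% and 123% in day 3, and 90.3% to 112% in day 7 libraries. The mean log2 ratio differed by -0.04, -0.08 and 0.04 in the 3 comparisons, with exact p of 0.8, 0.7 and 0.9, and the groups overlapped in each.

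**Figure D5:**
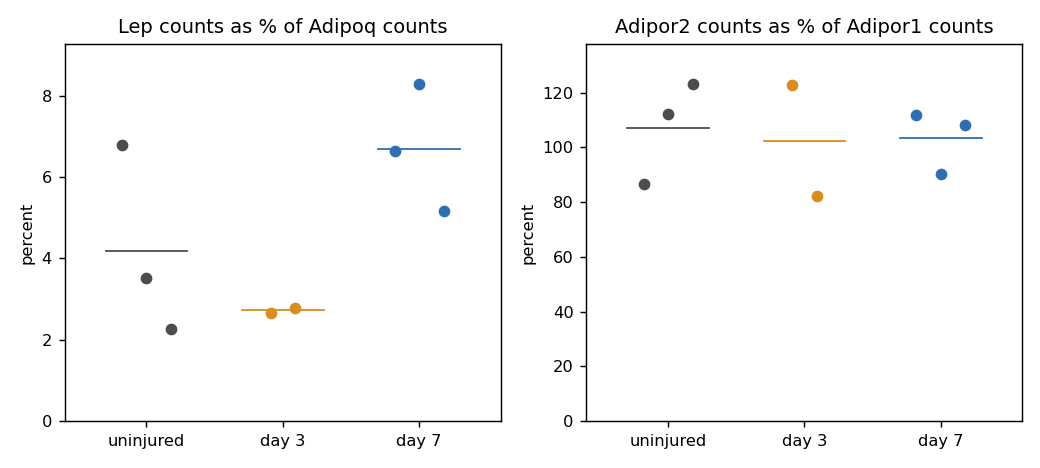
Lep counts as a percent of Adipoq counts (left) and Adipor2 counts as a percent of Adipor1 counts (right), 1 point per library, with the group mean as a line. The day 7 libraries (5.18% to 8.29%) lie above the day 3 libraries (2.66% and 2.78%) on the left, and groups overlap on the right.

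Receptors of these and related hormones (apelin and insulin among them) were mostly low. Of 15 listed genes 12 were tested, 3 rose and 0 fell at day 7, where 5.9% and 1.77% of all genes did (median log2 fold change 0.68 against 0.04 over all genes). At day 3 against uninjured and at day 7 against day 3 0 passed, where 0.0107% and 0.0858% of all genes did. Erbb3, a neuregulin receptor, rose from 3.86 ± 1.10 to 21.7 ± 11.3 CPM (edgeR adjusted p = 0.0133), with 17.5 and 7.27 CPM at day 3. Aplnr, the apelin receptor of endothelium, rose from 2.37 ± 1.67 to 26.6 ± 21.2 CPM (edgeR adjusted p = 0.0173). Stra6, the membrane receptor of retinol-bound Rbp4, rose from 0.102 ± 0.0935 to 2.04 ± 1.25 CPM (edgeR adjusted p = 0.0272). The uninjured mean of Stra6 lay below the level of 3 counts, which was 0.169 to 0.381 CPM in uninjured libraries. Leaving out uninjured 1, uninjured 3 or day 7 replicate 1 ended the Erbb3 call (adjusted p up to 0.0542), and leaving out uninjured 1, uninjured 3 or day 7 replicate 2 ended that of Aplnr (up to 0.0759). The Stra6 call ended when any uninjured or day 7 library except day 7 replicate 3 was left out (up to 0.114). Luminal epithelial and endothelial markers moved alongside, 8 of 9 and 7 of 10 having risen at day 7, and their part was not tested.

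The other receptors did not pass at day 7. Lepr, the leptin receptor, was at 3.65 ± 3.19 and 4.99 ± 3.84 CPM in uninjured and day 7 libraries. Cdh13, which binds adiponectin multimers at the cell surface, was at 13.2 ± 7.47 and 21.3 ± 10.5 CPM. Of the chemerin receptors, Cmklr1 was at 18.5 ± 8.35 and 19.4 ± 1.94 CPM, Ccrl2 at 1.79 ± 0.295 and 2.90 ± 0.679, and Gpr1 was too low to test. Erbb4, the main neuregulin 4 receptor, was at 0.178 ± 0.0962 and 0.735 ± 0.232 CPM and too low to test, as was Stra6l. Erbb2 was at 7.22 ± 0.428 and 21.1 ± 13.7 CPM (edgeR adjusted p = 0.0516) and Egfr at 27.0 ± 14.8 and 25.7 ± 7.50. Tlr4 and Cap1, both proposed to bind resistin, were at 19.7 ± 0.837 and 10.5 ± 2.89 CPM and at 8.61 ± 1.40 and 13.8 ± 2.19 CPM. The insulin receptor Insr was at 44.9 ± 9.55 and 41.0 ± 13.2 CPM.

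Inside the cell, 1 of 15 genes of adiponectin signalling rose and 1 fell at day 7, where 5.9% of all genes rose and 1.77% fell, so the share that rose was near the background. The list's median log2 fold change was -0.25 against 0.04 over all genes. Appl2, an adaptor related to the receptor-binding Appl1, rose from 19.4 ± 0.706 to 42.7 ± 13.7 CPM (edgeR adjusted p = 0.0307). Appl1 itself was at 23.8 ± 4.48 and 23.5 ± 6.86 CPM. Prkaa2, the catalytic subunit of AMP-activated protein kinase abundant in muscle, fell from 16.1 ± 4.12 to 6.94 ± 1.28 CPM (edgeR adjusted p = 0.0421). Skeletal muscle markers fell as well, 11 of 12 of them, and their part was not tested. The Prkaa2 call was lost when libraries were scaled to adipocyte markers (adjusted p = 0.321), and also when 1 of 4 libraries was left out: uninjured 1, uninjured 3, day 7 replicate 1 or day 7 replicate 2 (up to 0.175). Appl2 lost its call when any uninjured or day 7 library except day 7 replicate 3 was left out (adjusted p up to 0.114). None of 12 genes of adiponectin folding and secretion passed in any comparison. Of all genes 7.67% did at day 7 and 0.0107% at day 3 against uninjured, and 0.0858% at day 7 against day 3. At day 3 against uninjured all 12 genes of this list had a negative log2 fold change, with a median of -0.54 against 0.02 over all genes. It was also negative for 14 of 15 genes of adiponectin signalling (median -0.43) and 9 of 11 of leptin signalling (-0.42). The median was -0.14 for transcription factors. It was positive for receptors, other secreted factors, resistin relatives and the retinoid, NAD and chemerin lists (0.04 to 1.05). Ero1a, an oxidase that retains and releases adiponectin in the endoplasmic reticulum with Erp44, was at 27.9 ± 2.65 CPM in uninjured and 12.1 and 15.5 CPM in day 3 libraries (log2 -1.01 ± 0.26, edgeR adjusted p = 0.190).

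Of the transcription factors that act on these genes none passed, 0 of 13 in each comparison. Of all genes 7.67% passed at day 7 and 0.0107% at day 3 against uninjured, and 0.0858% at day 7 against day 3. Pparg, which drives Adipoq, was at 245 ± 40.6 CPM in uninjured and 141 ± 55.1 in day 7 libraries, and Cebpa, which acts on Lep, at 269 ± 29.7 and 180 ± 35.3. Both were lowest in day 7 replicate 1 (96.8 CPM for Pparg and 152 for Cebpa), as most members were. The TMM factor of that library was the largest, at 1.31. Lep was instead lowest in day 3 replicate 1. Of the 13 factors at day 7 against uninjured, 4 had a positive log2 fold change and 9 a negative one. Their median was -0.37 against 0.04 over all genes. A link between these factors and the members was not tested. Of 11 genes of leptin signalling 0 passed in any comparison, to be set against the same shares of all genes. Socs3, the feedback inhibitor that leptin induces, was at 21.6 ± 11.2, 29.5 ± 6.82 and 33.8 ± 14.0 CPM in uninjured, day 3 and day 7 libraries. Among the resistin relatives Retnla was at 59.8 ± 22.6 and 57.3 ± 15.3 CPM and Retnlg at 1.25 ± 0.394 and 1.57 ± 1.23 in uninjured and day 7 libraries, and neither passed. Retnlb was too low to test.

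Further lists held genes of retinoid transport, NAD metabolism and chemerin processing, with medians of 0.79, 0.08 and 1.18 at day 7 against 0.04 over all genes. In retinoid transport and metabolism 0 genes fell, and those that rose included, besides Stra6, the carriers Crabp1 (5.00 ± 4.62 to 40.3 ± 15.8 CPM, edgeR adjusted p = 0.0196) and Rbp7 (1.07 ± 0.426 to 5.63 ± 3.44, 0.0433), whereas Rbp4 did not pass. Crabp1 lost its call when uninjured 1, uninjured 3 or day 7 replicate 2 was left out (adjusted p up to 0.0805). Rbp7 lost its call when any uninjured or day 7 library except day 7 replicate 3 was (up to 0.159). Markers of fibroblasts (7 of 10), endothelium (7 of 10) and luminal epithelium (8 of 9) rose at day 7 as well. Their part in Crabp1 and Rbp7 was not tested. In NAD synthesis and use 1 of 14 rose, near the 5.9% of all genes that rose. It was Ido1, which opens tryptophan breakdown, and it rose from 0.0815 ± 0.0706 to 15.2 ± 7.45 CPM (edgeR adjusted p = 0.000944). The uninjured mean of Ido1 lay below the level of 3 counts, 0.169 to 0.381 CPM in those libraries. The part of other cell types in Ido1 was not tested. Among 7 tested chemerin-processing proteases and their relatives 2 rose, cathepsins Ctsk (16.2 ± 7.37 to 103 ± 31.5 CPM, edgeR adjusted p = 0.00971) and Ctss (12.2 ± 3.10 to 82.5 ± 30.9, 0.0114). Without uninjured replicate 1 these 2 had adjusted p of 0.0525 and 0.0537. Ctss is also a macrophage gene, and 6 of 12 macrophage markers rose at day 7, whose part was not tested. In these 3 lists 0 genes passed at day 3 against uninjured or at day 7 against day 3, where 0.0107% and 0.0858% of all genes did.

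Other secreted factors of fat cells passed in both directions at day 7. Of 20 tested 3 rose and 2 fell at day 7, where 5.9% and 1.77% of all genes did, with a median of 0.30. In the comparisons of day 3 with uninjured and of day 7 with day 3 0 passed, where 0.0107% and 0.0858% of all genes did. Agt, angiotensinogen, fell from 585 ± 196 to 113 ± 47.4 CPM (edgeR adjusted p = 0.00793), with 351 and 664 CPM at day 3. Gpx3, a secreted glutathione peroxidase, fell from 20529 ± 6018 to 5553 ± 2272 CPM (edgeR adjusted p = 0.0321), with day 3 libraries inside the uninjured range or above it. Fstl1, a follistatin-like protein of stromal cells, rose from 50.6 ± 27.8 to 360 ± 124 CPM (edgeR adjusted p = 0.00721). Fbn1, the fibrillin from which asprosin is cut, rose from 21.1 ± 1.86 to 75.2 ± 32.3 CPM (edgeR adjusted p = 0.0303), and Saa3, an acute-phase protein, from 90.9 ± 114 to 1011 ± 570 (0.0440). Agt and Fstl1 kept their calls without any 1 of the uninjured or day 7 libraries. Gpx3 and Fbn1 lost theirs when any uninjured or day 7 library except day 7 replicate 3 was left out (adjusted p up to 0.149 and 0.118). Saa3 lost its call when uninjured 1, uninjured 3, day 7 replicate 1 or day 7 replicate 2 was (up to 0.153). Fibroblast markers, 7 of 10 of which rose at day 7, moved with Fstl1 and Fbn1, and their part was not tested.

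The genes nearest in profile to each member were found by the root mean square (RMS) difference of centred log2 CPM over the 8 libraries, among 6549 genes with a mean of at least 20 CPM. Nearest to Adipoq were Gm7908, Mccc2 and Syap1, with RMS differences of 0.08, 0.10 and 0.11. Mccc2 is a subunit of a mitochondrial carboxylase of leucine breakdown, and it had 195, 175 and 213 CPM in uninjured and 62.4, 96.4 and 181 in day 7 libraries. Nearest to Retn were Pxmp2, Sdhb and Ndufs3 (0.12 to 0.13), and nearest to Nrg4 were Uqcrfs1, S100a1 and Slc25a10 (0.20 each). Sdhb, Ndufs3 and Uqcrfs1 are subunits of the respiratory chain. Among the members themselves the nearest pairs were Nampt and Adipor2 (0.18), Rbp4 and Adipor1 (0.20) and Retn and Nrg4 (0.21). Nearest to Lep was Inhbb, a subunit of activin that fat cells secrete, at 0.22, followed by Nid2 and Morc4. Inhbb was at 58.3, 49.7 and 30.9 CPM in uninjured, 22.2 and 25.3 in day 3, and 31.4, 44.0 and 52.9 in day 7 libraries, and so was low where Lep was low. Nearest to Rarres2 were Lbp, which binds bacterial lipopolysaccharide, at 0.29 and Atxn1l at 0.40. Lbp was at 86.4, 108 and 25.1 CPM in uninjured libraries, with replicate 3 low as for Rarres2. Nearest were Coq8b to Rbp4 (0.04), Ptcd3 to Nampt (0.08), Fam50a to Adipor1 (0.07) and Slc25a35 to Adipor2 (0.07). Genes that vary little are near to many others, so these distances describe the members and do not rank their likeness.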

How the data were processed

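RNA bound to GFP-tagged ribosomes of mouse skin was sequenced in 8 libraries. Groups were taken from the sample titles, in which "PW" with a number and "d" was read as days after wounding. The authors deposited 1 table of raw read counts per gene, made with featureCounts 2.0.8 per the file headers, with a gene length in bases. STAR 2.7.10b and mm10 are named in the submitters' processing notes. How strand and multimapping reads were handled is not stated in these sources. Input and unbound libraries were not used here.

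Counts were tested with edgeR 4.0.16 (quasi-likelihood F test, TMM scaling, filterByExpr with a minimum count of 10) in 1 model of all 8 libraries, in R 4.3.3. Of 53700 genes 18656 were tested, and p-values were adjusted over them by Benjamini-Hochberg with a threshold of 0.05. TMM CPM and TPM were computed from the deposited counts. Symbols were matched for 52093 identifiers, and Ero1a was matched under its older name Ero1l. Alternatives were DESeq2 1.42.0, other scalings and filters, a replicate block, fits of only the groups compared, and leaving out each library of the groups compared. The rule named all 9 members, up to 4 genes per list that passed, every tested hormone receptor, and the 3 genes nearest to each member in profile. Appl1, Ero1a, Erp44, Pparg, Cebpa, Socs3, the resistin relatives and receptors too low to test were named after their values were seen. One result for the retinoid list is not reported here. The members and lists were chosen with earlier results of these data known. The edgeR code was tested on simulated data.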

Additional observations from a re-analysis of the deposited data

How the results depend on the processing

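Calls depended on the filter, the tool and single libraries. For day 7 against uninjured 1431 genes passed, against 2602 with DESeq2, 3156 without a filter, and 314 to 4055 when 1 library of the groups compared was left out. For day 3 against uninjured 2 passed, against 1 scaled to adipocyte markers, 430 with DESeq2, 926 without a filter, 0 with a minimum count of 30, 0 in a fit of the 2 groups alone, and 0 to 150 with 1 library left out. For day 7 against day 3 16 passed, against 26 with upper-quartile scaling, 8 scaled to adipocyte markers, 225 with DESeq2, 572 without a filter, and 5 to 34 with 1 library left out. Where 1 day 3 library was left, it was assumed to vary like the other groups. The share of calls that rose was 76.9% at day 7 against uninjured (95.9% scaled to adipocyte markers) and 75.0% at day 7 against day 3 (87.5% scaled to adipocyte markers, 57.7% upper-quartile).

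Members called were 0 in each comparison, 1 without a filter at day 7 (Rarres2) and at day 3 (Lep) against uninjured, and 0 to 1 with 1 library left out at day 7 (Adipoq without day 7 replicate 3). Signs turned as follows, and apart from the change of scaling itself the cause was not tested. Scaling to adipocyte markers moved the median of all genes to 0.73, 0.25 and 0.54 in the 3 comparisons. At day 7 against uninjured it gave 0.50 for Lep, 0.10 for Retn, 0.42 for Rbp4, 0.43 for Nampt, 0.51 for Nrg4, 0.41 for Adipor1 and 0.37 for Adipor2. At day 3 against uninjured it gave 0.20 for Adipor1 and 0.14 for Adipor2, and at day 7 against day 3 0.13 for Adipoq, 0.21 for Adipor1 and 0.24 for Adipor2. Upper-quartile scaling gave 0.024 for Nrg4 at day 7 and 0.086 and 0.046 for Adipor1 and Adipor2 at day 3 against uninjured, and -0.040 for Nampt at day 7 against day 3. A minimum count of 30 and the fit of 2 groups alone gave 0.013 and 0.012 for Nrg4 at day 7 against uninjured.

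With 1 library left out, log2 fold changes at day 7 against uninjured ran from -0.34 to 0.39 for Lep, -0.47 to 0.040 for Rbp4, -0.45 to 0.0024 for Nampt and -0.57 to 0.24 for Nrg4. At day 3 against uninjured they ran from -0.65 to 0.0043 for Nampt, -1.73 to 0.045 for Rarres2, -0.094 to 0.065 for Adipor1 and -0.46 to 0.20 for Adipor2. At day 7 against day 3 they ran from -0.64 to 0.13 for Adipoq, -0.11 to 0.38 for Rbp4, -0.24 to 0.41 for Nampt, -1.50 to 0.28 for Rarres2 and -0.48 to 0.17 for Adipor2. The Adipor2 to Adipor1 log2 ratio differed by -0.19 to 0.065, -0.37 to 0.21 and -0.25 to 0.33 in the 3 comparisons.

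The correlations of deviations between same-numbered libraries ran from -0.07 to 0.20, and not every library correlated best with its own number. With so few libraries per group these values cannot show whether same-numbered libraries shared more than a number. With the replicate number as a block 2131, 7 and 126 genes passed in the 3 comparisons, against 1431, 2 and 16 without it. The block gave 0.013 for Adipor1 and 0.036 for Adipor2 at day 3 against uninjured, and -0.0017 for Rbp4 and -0.14 for Nampt at day 7 against day 3. No member was called under it.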
